A study of Mus musculus with 9 samples.

Results

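The growth hormone receptor, STAT5 and IGF1 axis is described here by 10 transcripts measured in mouse liver. The members were taken by gene symbol, Ghr, Jak2, Stat5a, Stat5b, Socs2, Cish, Igf1, Igfals, Bcl6 and Cux2, and all 10 were found among the 55253 symbols of the deposited table. The 9 livers came from male C57Bl/6J mice and were read by 3′ mRNA sequencing. The WD+alcohol group was 5 mice that were 10 weeks old at the start and then spent 23 weeks on a WD (read here as Western diet), with 10% alcohol in drinking water that was sweetened. The control group was 4 mice on chow and tap water, whose libraries carry the same 23-week label. The design text does not state the age of the control mice at the start. Diet, alcohol and sweetening came together, so only their joint effect can be measured. The labels say neither whether the mice were fasted nor at which hour livers were taken.

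Growth hormone reaches the liver in pulses from the pituitary. It binds a receptor encoded by Ghr, the receptor-bound kinase JAK2 is activated, and JAK2 phosphorylates the transcription factors STAT5A and STAT5B, which then enter the nucleus. STAT5 drives Igf1 and Igfals, whose secreted products circulate together, and Socs2 and Cish, whose products damp the receptor's signal. In rodent liver the male pattern of pulses also sets sex-biased transcription, with the repressor genes Bcl6 (higher in males) and Cux2 (higher in females) downstream of STAT5. Activation of the pathway is a matter of phosphorylation and pulse timing, and neither is measured by transcript levels.

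STAT5 binds a palindrome of the form TTCNNNGAA, and the stretches of member promoters that hold these letters are shown first because the feedback and effector members are read below as its textbook targets. The promoters are RefSeq's, on build GRCm38.p6, and not on the build named for the authors' alignment. Among 32851 promoters in that table, 7.02% held the palindrome in the 250 bases before the start of transcription. The table had 16 promoters for 9 of the members, with none for Socs2. Of the 16 promoters 4, from Bcl6 and Igfals, held it, and no promoter of Igf1 did. Capitals mark the palindrome, which reads alike on both strands, and all lines run 5′ to 3′ on the gene's strand.
Cish, chr9:107296659-107296678, plus strand: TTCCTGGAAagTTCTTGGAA
Bcl6, upstream start, chr16:23988853-23989052, minus strand: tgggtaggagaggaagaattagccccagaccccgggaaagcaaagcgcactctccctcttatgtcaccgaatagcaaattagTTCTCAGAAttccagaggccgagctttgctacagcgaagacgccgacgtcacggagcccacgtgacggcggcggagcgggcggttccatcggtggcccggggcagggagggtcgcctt
Bcl6, downstream start, chr16:23981284-23981483, minus strand: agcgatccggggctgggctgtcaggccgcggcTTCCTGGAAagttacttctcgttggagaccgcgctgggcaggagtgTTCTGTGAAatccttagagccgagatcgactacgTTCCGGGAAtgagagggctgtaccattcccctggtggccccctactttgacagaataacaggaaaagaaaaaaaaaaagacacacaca
Igfals, first start, chr17:24877594-24877623, plus strand: tgccgatctataatTTCTCAGAAaagaggc
Igfals, second start, chr17:24878163-24878192, plus strand: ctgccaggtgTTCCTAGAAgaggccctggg
The Cish pair lay at positions 1 and 12, just inside the RefSeq transcript, and with those bases counted (300-base windows) 5 member promoters held the palindrome, against 8.30% of all promoters. At the downstream Bcl6 start it occurred at positions -168, -122 and -88, and at the upstream start at -118. A match describes these letters and does not show binding.

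No transcript of the axis was called different between WD+alcohol and control livers. Of the 9 members abundant enough to test, 0 passed an adjusted p of 0.05 (limma-trend, two-sided, Benjamini-Hochberg over all genes), where 2.29% of all tested genes did. The count was also 0 with edgeR's quasi-likelihood test (2.13% of all genes called) and with DESeq2 (3.71%). At an unadjusted p under 0.05 there was 1 member, Igf1, against 12.2% of all tested genes. All 10 members had overlapping values in the 2 groups, while 5.34% of tested genes had groups that did not overlap. The median log2 fold change of the 9 was -0.15, beside -0.00077 over all tested genes. Of the 9, 6 were negative, as were 50.1% of all tested genes. The median absolute log2 fold change was 0.148 for the 9 and 0.125 over all tested genes.

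**Figure D1:**
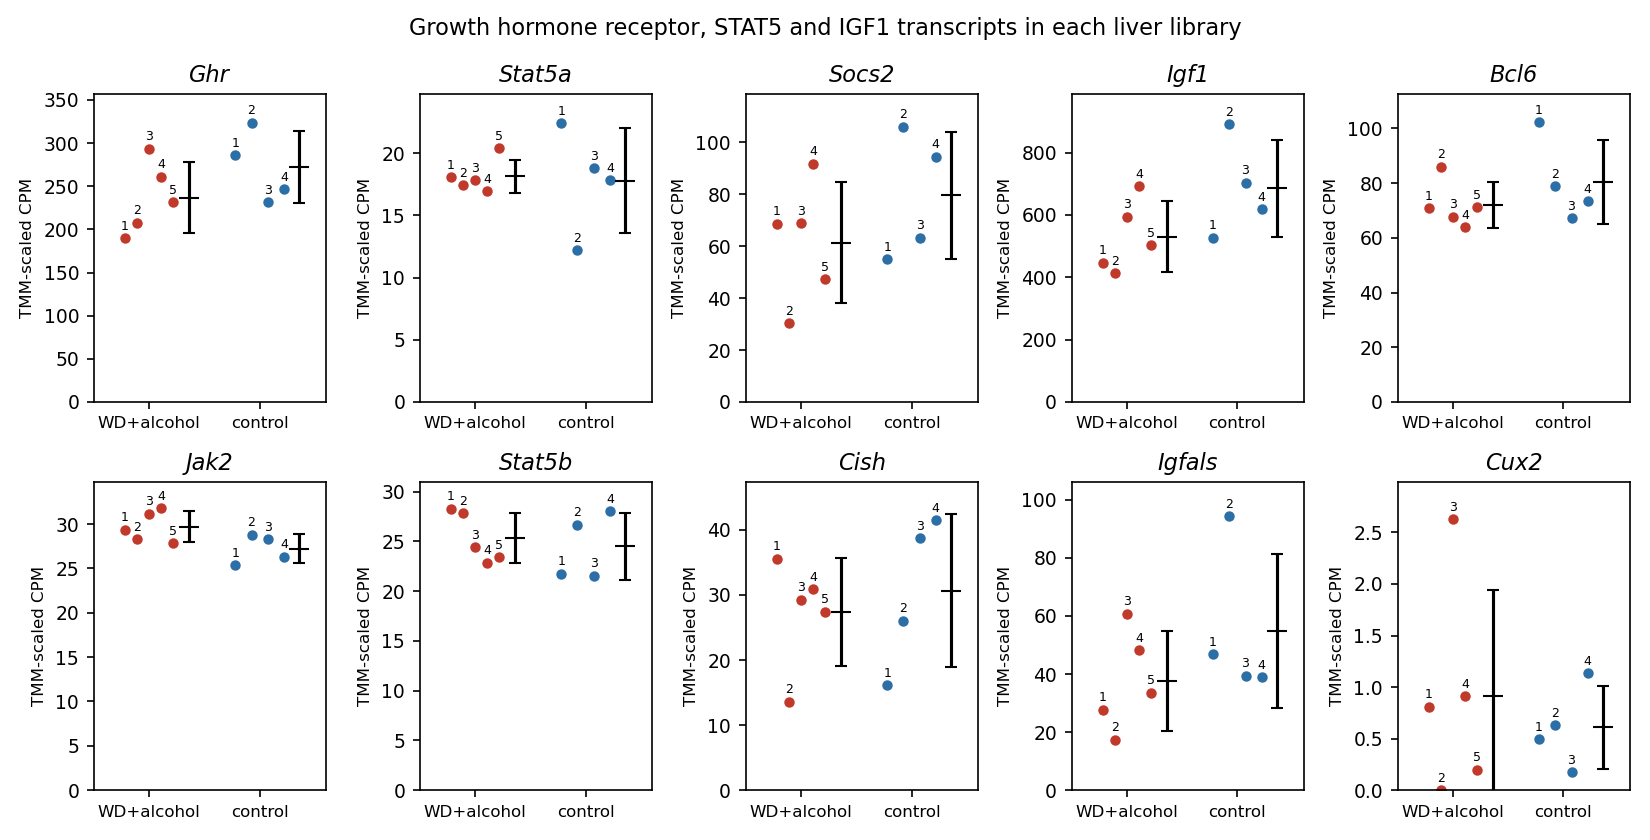
Level of each of the 10 transcripts in TMM-scaled CPM (y axis, from 0), with 1 numbered point per library, WD+alcohol in red and control in blue, and bars for the mean ± SD (n = 5 and n = 4, cut off at 0 for Cux2). The groups overlap in every panel, and control 2 is the highest point for Ghr, Socs2, Igf1 and Igfals.

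Values are CPM scaled by TMM, and since a 3′ library reads each transcript about once, levels can be set beside one another without a correction for length. In WD+alcohol and control livers alike Igf1 was the most abundant member and Ghr came next. Bcl6 and Socs2 followed and did not differ from each other beyond their spread, as Bcl6 averaged 72.0 and Socs2 61.4 CPM in WD+alcohol livers, and Bcl6 80.5 and Socs2 79.7 CPM in controls. Below them came Igfals, then Jak2, Cish and Stat5b, which lay within each other's spread, then Stat5a, and Cux2 near the limit of detection. The number of reads behind a value ran from 58 for Stat5a to 4573 for Igf1 among the 9 tested members.

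Ghr, the gene of the receptor, had 190, 208, 293, 261 and 231 CPM in WD+alcohol 1 to 5, against 286, 324, 232 and 246 CPM in control 1 to 4. WD+alcohol 3 lay above 3 of the 4 controls, and WD+alcohol 1, 2 and 5 lay below all of them, WD+alcohol 5 only just. The means were 237 ± 41.5 CPM (SD, n = 5) and 272 ± 41.5 CPM (SD, n = 4), and the log2 fold change of -0.21 (95% interval -0.48 to 0.07; limma-trend adjusted p = 0.586) did not pass. It was -0.13 without WD+alcohol 1, -0.12 without control 2 and -0.040 with scaling on hepatocyte genes. Jak2, the kinase that the receptor carries, had 29.4, 28.3, 31.2, 31.8 and 27.8 CPM in WD+alcohol livers and 25.4, 28.8, 28.3 and 26.3 CPM in controls. Its coefficient of variation was the lowest of the members, at 5.90% in WD+alcohol and 5.95% in control livers. At 109 to 210 reads per library, counting error alone could give a spread of that size. How alike the mice were in Jak2 can therefore not be read from it. Its log2 fold change was 0.12 (95% interval -0.07 to 0.31; limma-trend adjusted p = 0.660), or 0.28 with scaling on hepatocyte genes.

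Stat5a and Stat5b encode the closely related transcription factors of the pathway, and STAT5B carries most of the growth hormone signal in mouse liver. Stat5b had 28.3, 27.8, 24.4, 22.9 and 23.4 CPM in WD+alcohol livers, against 21.8, 26.7, 21.5 and 28.0 CPM in controls. Stat5a had 18.1, 17.4, 17.8, 17.0 and 20.4 CPM in WD+alcohol livers, against 22.4, 12.2, 18.8 and 17.8 CPM in controls. The control livers spanned both the lowest and the highest Stat5a value. Log2 fold changes were 0.052 for Stat5b (95% interval -0.19 to 0.30; limma-trend adjusted p = 0.914) and 0.054 for Stat5a (-0.27 to 0.37; adjusted p = 0.937), and both were 0.21 with scaling on hepatocyte genes. The log2 ratio of Stat5b to Stat5a within a library averaged 0.46 ± 0.18 in WD+alcohol livers and 0.46 ± 0.49 in controls. That difference of -0.0019 had an exact two-sided permutation p of 0.976, where the smallest p possible was 0.00794. The counted genes are paralogs that lie next to each other, and it is not stated how reads matching more than 1 place were treated.

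Socs2 and Cish encode inhibitors of cytokine receptor signalling that STAT5 itself induces. Socs2 had 68.7, 30.4, 68.9, 91.8 and 47.2 CPM in WD+alcohol 1 to 5, against 55.0, 106, 63.3 and 94.5 CPM in control 1 to 4. WD+alcohol 2 held the lowest value of all 9 livers and control 2 the highest, and the rest of the groups were interleaved. The log2 fold change was -0.41 (95% interval -0.999 to 0.17; limma-trend adjusted p = 0.610), lying between -0.58 and -0.19 (the smallest without WD+alcohol 2) as single libraries were left out and at -0.25 with scaling on hepatocyte genes. Cish had 35.6, 13.6, 29.3, 30.9 and 27.4 CPM in WD+alcohol livers and 16.1, 26.1, 38.8 and 41.5 CPM in controls. Here too WD+alcohol 2 was lowest, but the highest livers were control 4 and control 3. Its log2 fold change of -0.13 (95% interval -0.74 to 0.47; limma-trend adjusted p = 0.908) was positive without WD+alcohol 2 (0.089), without control 3 (0.0055) or control 4 (0.038), and with scaling on hepatocyte genes (0.025).

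Igf1 encodes the circulating growth factor through which much of the hormone's effect on growth passes, and the liver is its main source in plasma. It had 447, 414, 595, 693 and 503 CPM in WD+alcohol 1 to 5, against 527, 891, 704 and 619 CPM in control 1 to 4. WD+alcohol 1, 2 and 5 lay below every control, while WD+alcohol 3 and 4 lay within the controls' range. The mean was 530 ± 114 CPM (SD, n = 5) in WD+alcohol and 685 ± 155 CPM (SD, n = 4) in control livers. The log2 fold change was -0.37 (95% interval -0.72 to -0.02; unadjusted p = 0.0412; limma-trend adjusted p = 0.375). It stayed negative in all 22 alternative settings, from -0.48 to -0.20, with adjusted p between 0.167 and 0.745 and an unadjusted p under 0.05 in 13 of them. The smallest difference among the library omissions came without control 2 (-0.23).

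Igfals encodes the acid-labile subunit, which holds IGF1 and its binding protein in a long-lived complex in plasma. It had 27.8, 17.4, 60.8, 48.2 and 33.6 CPM in WD+alcohol 1 to 5, against 46.8, 94.3, 39.5 and 38.8 CPM in control 1 to 4. Control 2 stood above every other liver, and WD+alcohol 3 and 4 exceeded the remaining 3 controls. The log2 fold change was -0.56 (95% interval -1.25 to 0.14; limma-trend adjusted p = 0.538), and -0.26 without control 2 or -0.32 without WD+alcohol 2. The ratio of Igf1 to Igfals within a library was not called different between groups (log2 difference 0.19; exact permutation p = 0.532, adjusted p = 0.886 over 5 ratios). Neither were Igf1 to Ghr (-0.16; p = 0.341), Cish to Socs2 (0.28; p = 0.365) and Igf1 to Socs2 (0.046; p = 0.881) by the same exact permutation test, where adjusted p was 0.886 or more. As single libraries were left out, these log2 differences ran from 0.032 to 0.34 for Igf1 to Igfals, from -0.31 to -0.068 for Igf1 to Ghr and from 0.081 to 0.51 for Cish to Socs2.

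Bcl6 and Cux2 encode repressors that mark the male and the female pattern of growth hormone signalling. Bcl6 had 70.9, 86.0, 67.8, 63.9 and 71.3 CPM in WD+alcohol livers, against 102, 79.0, 67.1 and 73.5 CPM in controls. Control 1 was the highest liver and WD+alcohol 4 the lowest, with a log2 fold change of -0.15 (95% interval -0.41 to 0.11; limma-trend adjusted p = 0.709) that was -0.028 without control 1, -0.23 without control 3 and 0.015 with scaling on hepatocyte genes. Cux2 had between 0 and 14 reads per library and was below the filter of a mean of 1 CPM. It stood at 0.81, 0, 2.63, 0.91 and 0.20 CPM in WD+alcohol 1 to 5, against 0.49, 0.63, 0.17 and 1.14 CPM in control 1 to 4. WD+alcohol 3 was the highest, and most values lay near the 0.455 to 0.809 CPM that 0 reads would still allow (3 reads, counting error only). Without a filter its log2 fold change was 0.13 (95% interval -0.56 to 0.82; limma-trend adjusted p = 0.904).

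The intervals of the main fit say which changes these 9 livers leave room for under its scaling. On the log2(CPM + 1) scale, the 95% intervals of Ghr, Jak2, Stat5a, Stat5b, Cish, Igf1 and Bcl6 all lay between 0.598-fold and 1.39-fold. The Socs2 interval ran from 0.500-fold to 1.13-fold. Only the interval of Igfals, from 0.421-fold to 1.10-fold, reached a fall to less than 0.5-fold. The lower limit of Socs2 lay right at that mark, and its log2 fold change was -0.58 without WD+alcohol 4. Scaling also moves these bounds. On hepatocyte genes the log2 fold change was 0.28 for Jak2 and 0.21 for both Stat5a and Stat5b.

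**Figure D2:**
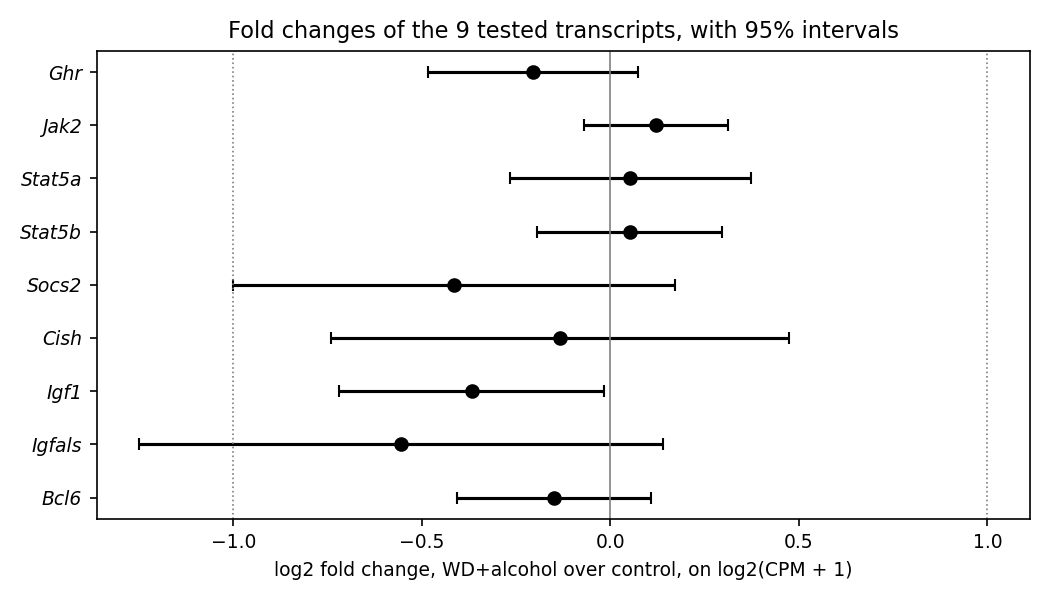
Log2 fold change of WD+alcohol over control on the log2(CPM + 1) scale (x axis) for the 9 tested members, with points for the estimate, bars for its 95% interval, and dotted lines at 2-fold in either direction. The interval of Igf1 (-0.72 to -0.02) is the only one that leaves out 0, and that of Igfals (-1.25 to 0.14) is the widest.

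Mice of the same group differed widely in the hormone-responsive members. Within WD+alcohol livers the coefficient of variation was 45.5% for Igfals, 38.1% for Socs2, 30.2% for Cish and 21.4% for Igf1, and within controls 48.4% for Igfals, 30.7% for Socs2, 38.4% for Cish and 22.6% for Igf1. Genes within 1.5-fold of their level had median coefficients between 7.93% and 11.6%. Ghr also exceeded the median of its level, at 17.5% against 8.09% in WD+alcohol and 15.2% against 7.78% in control livers. Bcl6 did too (11.7% against 8.96% and 19.1% against 9.11%). Stat5a (23.8% against 13.9%) and, by little, Stat5b (13.7% against 12.3%) did so in controls only. In WD+alcohol livers Stat5a (7.39% against 13.6%) and Stat5b (9.95% against 12.2%) lay below the median of their level. Jak2 lay below it in both groups (5.90% and 5.95%, each against 11.6%).

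Several of these transcripts were high or low in the same livers, a pattern singled out after the values were seen. Ghr and Igfals moved most closely together, with Pearson's r = 0.90 and Spearman's rho = 0.95 over 9 libraries (exact permutation, adjusted p = 0.0143 for r and 0.00529 for rho over 15 relations). With WD+alcohol 1 and control 2, the 2 libraries farthest from the Ghr median, left out, r was also 0.90, and r over deviations from the group means was 0.88. Of 14758 other genes, 0.203% had an r with Ghr as high as that of Igfals, and 0.59% had an r with Igfals as high as that of Ghr. Igf1 and Igfals had r = 0.86 and rho = 0.78 (exact permutation, adjusted p = 0.0171 for r and 0.0646 for rho), and r was 0.56 without WD+alcohol 2 and control 2, so this relation rests largely on those livers. Socs2 with Igf1 had r = 0.79 and rho = 0.73 (exact permutation, adjusted p = 0.0338 and 0.0922), with r = 0.51 without the same 2 livers. For the pair of Igf1 and Igfals, 0.664% of other genes had an r as high with Igf1 and 1.42% with Igfals. For the pair of Socs2 and Igf1 the shares were 1.8% with Socs2 and 1.9% with Igf1. Cish had r = -0.088 to Ghr and 0.26 to Igfals, neither past the threshold (exact permutation, adjusted p = 0.819 and 0.522), and both changed sign without their 2 farthest livers (0.13 and -0.58).

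Igf1 and Socs2 also followed the summed level of hepatocyte genes. The sum over 63 hepatocyte-list genes was 85684, 73439, 96283, 89724 and 75782 CPM in WD+alcohol 1 to 5, against 87689, 120499, 102495 and 111295 CPM in control 1 to 4. Its correlation with Igf1 was r = 0.85 and rho = 0.90 (exact permutation, adjusted p = 0.0171 and 0.0152), and with Socs2 r = 0.84 and rho = 0.85 (adjusted p = 0.0171 and 0.0304). Igfals passed by r alone, with r = 0.76 and rho = 0.72 (exact permutation, adjusted p = 0.0413 and 0.0922). Ghr (r = 0.60, rho = 0.68) and Cish (r = 0.53, rho = 0.47) passed by neither. Without control 2 and control 4 the r was 0.80 for Igf1, 0.72 for Socs2 and 0.72 for Igfals. All values of a library share its scaling factor, and with libraries rescaled on the hepatocyte list the log2 fold change of Igf1 was -0.20 and that of Socs2 stayed negative. Alb, part of this list, averaged 18876 CPM in WD+alcohol and 33497 CPM in control livers, so the sum leans on its most abundant genes. Over the 63 genes the median log2 fold change was -0.15, with 19 positive and 44 negative. What lay behind the sum was not tested, nor was how many other genes followed it as closely. In bulk tissue, fewer hepatocytes and less RNA per hepatocyte cannot be told apart.

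**Figure D3:**
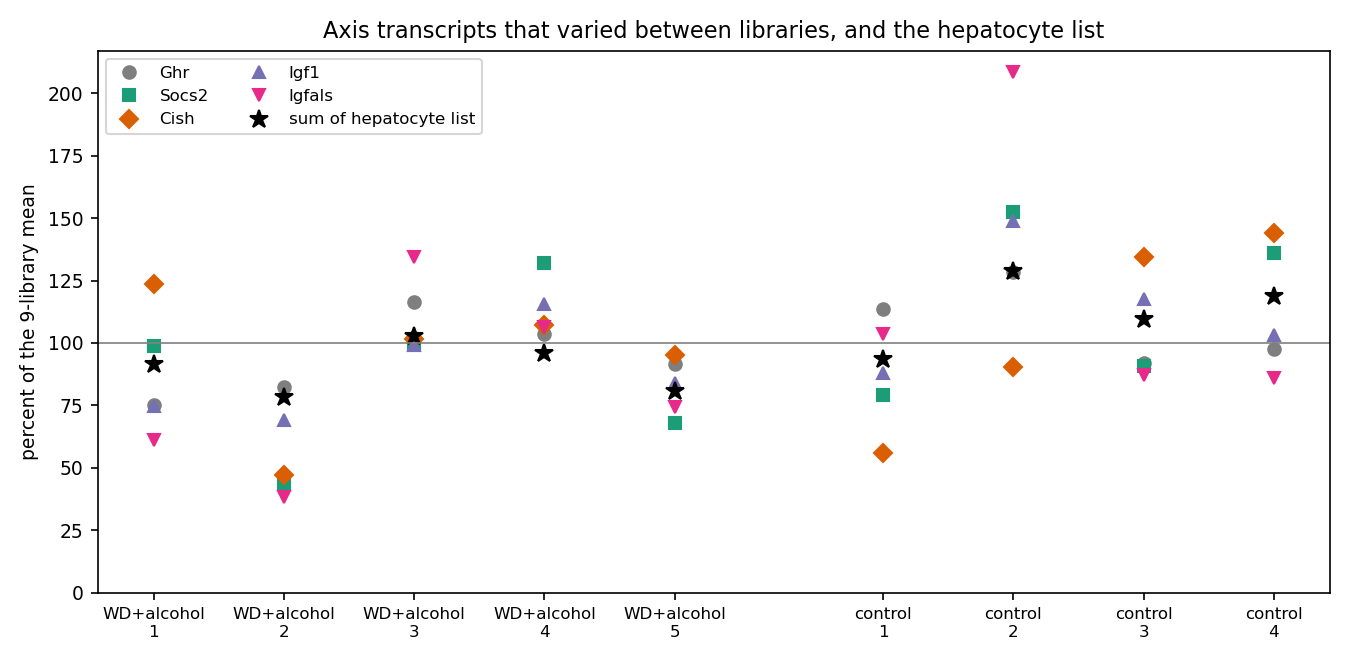
Level of Ghr, Socs2, Cish, Igf1 and Igfals and the summed hepatocyte list in each library, as a percentage of the mean over the 9 libraries (y axis), with WD+alcohol libraries at the left and controls at the right. WD+alcohol 2 is low for all of them (Igfals 38.5%, Socs2 43.7%), and control 2 is high for all but Cish (Igfals 208%, Socs2 153%).

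No other gene of the IGF system was called. Of 16 genes listed, 12 could be tested and 0 passed over all genes (limma-trend; 3 positive and 9 negative log2 fold changes, median -0.045). Since 2.29% of all tested genes passed, a count of 0 among 12 says little about these genes. Igf2 and Pappa2 had 0 reads in all libraries. Igfbp4, the most abundant IGF-binding protein transcript, averaged 1124 ± 103 CPM in WD+alcohol and 1273 ± 176 CPM in control livers (log2 fold change -0.17; limma-trend adjusted p = 0.569). The genes with the smallest p-values were picked out after their values were seen. Igfbp7 had 154 to 230 CPM in WD+alcohol livers, against 123 to 153 CPM in controls, without overlap (log2 fold change 0.36; limma-trend adjusted p = 0.139). Igfbp2 averaged 74.3 ± 23.5 against 120 ± 42.1 CPM (log2 fold change -0.68; adjusted p = 0.199), and Igfbp3, whose product carries IGF1 with the acid-labile subunit, 9.23 ± 1.66 against 6.37 ± 2.55 CPM (0.52; adjusted p = 0.340). Igfbp1, which insulin represses and fasting induces, ranged from 31.3 to 226 CPM in WD+alcohol and from 16.8 to 315 CPM in control livers, so its log2 fold change of 0.21 had an interval of -1.49 to 1.90.

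Among 17 genes of receptor-proximal signalling 0 were called (median log2 fold change 0.0090), where 2.29% of all tested genes were. The most abundant, Stat3, averaged 312 ± 22.4 CPM in WD+alcohol and 340 ± 48.1 CPM in control livers (log2 fold change -0.12; limma-trend adjusted p = 0.711). Prlr, the prolactin receptor and a close relative of Ghr, averaged 41.2 ± 15.0 against 53.4 ± 25.6 CPM and was not called (adjusted p = 0.735). Of 16 inhibitors of cytokine receptors 1 rose and 0 fell, where 1.61% of all tested genes rose. That gene was Sirpa, an inhibitory receptor of macrophages that also lies on the growth hormone pathway in cell lines, at 55.8, 51.8, 44.3, 43.2 and 61.7 CPM in WD+alcohol livers and 37.7, 33.4, 35.5 and 31.6 CPM in controls. Its groups did not overlap (log2 fold change 0.55 ± 0.11, SE; limma-trend adjusted p = 0.0186), and its call was lost without WD+alcohol 5 (adjusted p = 0.0522) or control 4 (0.0612). Ptpn6, the phosphatase SHP-1 of blood cells, also had separate groups at 29.6 ± 3.71 against 21.7 ± 1.65 CPM but missed the threshold (limma-trend adjusted p = 0.0595), which it passed in 3 of 22 alternatives (rescaling to one total, array weights and DESeq2; lowest adjusted p 0.0316). Socs3, the STAT3-induced inhibitor, averaged 142 ± 18.7 against 152 ± 29.3 CPM (adjusted p = 0.856).

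On the macrophage list, 15 of 24 genes rose and 0 fell, where 1.61% of all tested genes rose. Its summed level was 975 to 1543 CPM in WD+alcohol livers, against 434 to 579 CPM in controls. Adgre1, encoding F4/80, averaged 21.7 ± 4.92 against 8.50 ± 1.26 CPM, and Clec4f, a Kupffer cell receptor, 34.6 ± 6.06 against 16.6 ± 6.47 CPM. Of the 24 genes, 22 had a positive and 2 a negative log2 fold change. Timd4 (2.43 ± 1.20 against 2.86 ± 0.95 CPM) and Cd163 (6.86 ± 2.67 against 10.4 ± 5.36 CPM), also on the list, averaged lower in WD+alcohol livers. The part of macrophages in the Sirpa and Ptpn6 values was not tested.

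Of 16 tested partner factors of STAT5 in hepatocytes, 1 fell and 0 rose, where 0.678% of all tested genes fell. Foxa3, a forkhead factor enriched in liver, had 54.4, 39.4, 40.0, 38.8 and 37.4 CPM in WD+alcohol livers, against 61.1, 86.8, 50.7 and 72.4 CPM in controls. WD+alcohol 1 lay above control 3, and the log2 fold change was -0.66 ± 0.15 (SE; limma-trend adjusted p = 0.0306). Foxa3 was not called in 10 of 22 alternatives, among them on leaving out any single library other than WD+alcohol 1 and control 3 (adjusted p 0.0584 to 0.0948). Among 10 tested transcripts often described with the axis, 1 fell, and that was Lifr, the receptor of leukaemia inhibitory factor. It had 51.5, 46.1, 60.6, 56.7 and 44.0 CPM in WD+alcohol livers, against 98.2, 112, 90.4 and 98.9 CPM in controls, a log2 fold change of -0.94 ± 0.10 (SE; limma-trend adjusted p = 0.000310). Every WD+alcohol liver was below every control, and Lifr was called in all 22 alternatives.

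Many male-biased transcripts, which growth hormone pulses maintain in rodent liver, were lower in WD+alcohol livers. Of 24 tested male-biased genes 15 fell and 0 rose, where 0.678% of all tested genes fell, with a median log2 fold change of -1.43. Selenbp2 had 7.79 to 24.4 CPM in WD+alcohol livers, against 69.7 to 160 CPM in controls (log2 fold change -2.95; limma-trend adjusted p = 8.13e-05). Cyp7b1 had 21.6 to 50.5 CPM in WD+alcohol livers, against 99.1 to 133 CPM in controls (-1.84; adjusted p = 0.000344), and Hsd3b5 and Slco1a1 fell by 5.04 and 3.50 on the log2 scale. Hsd3b5 had 0 to 4.55 CPM in WD+alcohol livers, so the size of its fall depends on the pseudocount and test. Its log2 fold change ran from -5.92 to -3.56 over the 22 alternatives. Of 13 tested female-biased genes 3 rose (Cyp2b9, Fmo2 and Atp6v0d2) and 1 fell (Cyp2b10), beside 1.61% of all tested genes that rose. Cyp2b9, a cytochrome P450 of female liver, had a log2 fold change of 3.36 (limma-trend adjusted p = 0.000344), and its relative Cyp2b10 one of -2.09 (adjusted p = 0.00160). Cyp2b9 had 5.61 to 23.6 CPM in WD+alcohol livers and 0 to 1.15 CPM in controls, so its fold change depends on the pseudocount and test. Both were called in all 22 alternatives, over which Cyp2b9 ran from 1.72 to 5.30 and Cyp2b10 from -2.70 to -1.20. Fmo2 lost its call in 7 of 22 alternatives, among them on omission of WD+alcohol 3, WD+alcohol 5, control 1 or control 3 (limma-trend adjusted p 0.0593 to 0.0724), and Atp6v0d2 is also a macrophage gene. The difference between these lists and the axis was not itself tested, and the lists were chosen with their direction in these data known.

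**Figure D4:**
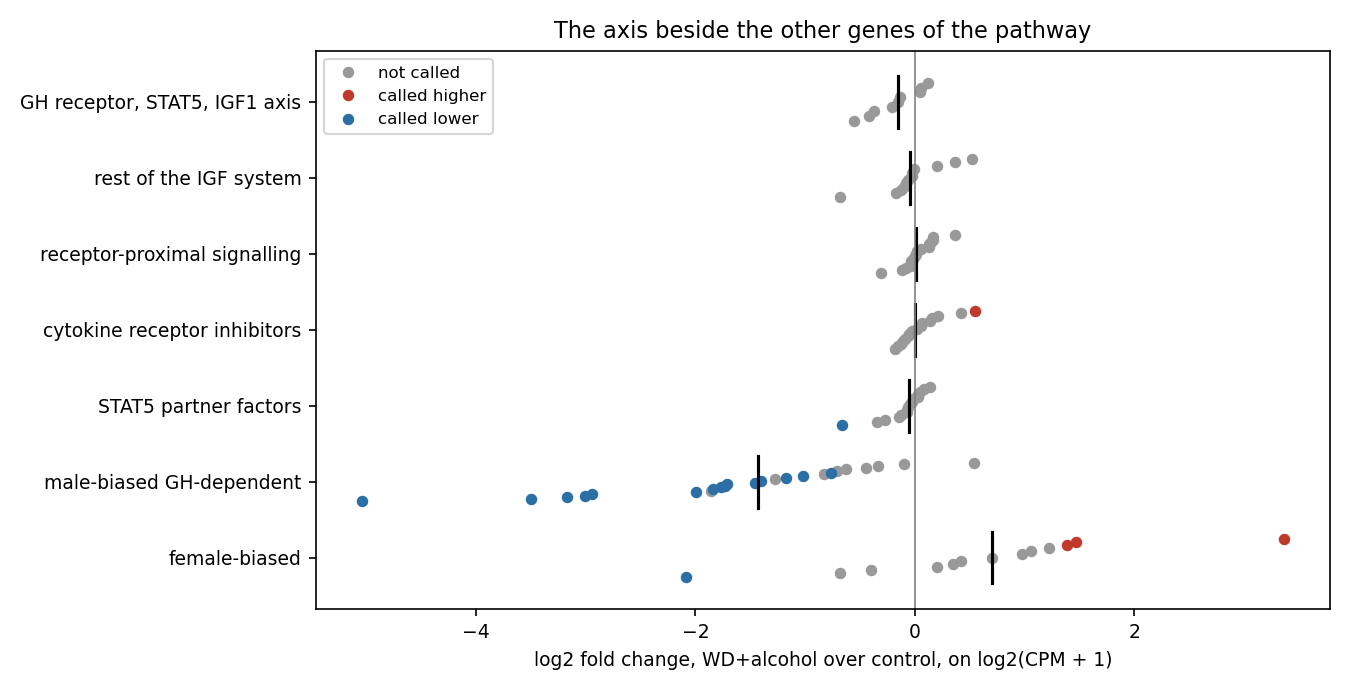
Log2 fold change of WD+alcohol over control on the log2(CPM + 1) scale (x axis) of every tested gene in 7 lists (rows), with grey points for genes not called, red for higher and blue for lower at an adjusted p under 0.05, and a black bar at each median. The 9 axis members lie around a median of -0.15 with none called, and the male-biased list around -1.43 with 15 called lower.

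The libraries held 3635860 to 6643645 reads in genes in the WD+alcohol group and 5050763 to 5910285 in controls. Over all 14759 genes tested, 238 rose and 100 fell, and 445 rose and 88 fell with scaling on the hepatocyte list, under which all tested genes had a median log2 fold change of 0.15. Alb, a defining hepatocyte transcript, was abundant in every library, at 14342 to 23414 CPM in WD+alcohol livers, against 26685 to 42089 CPM in controls. Of the 63 tested hepatocyte-list genes, 2 rose and 6 fell, but 2 fell on omission of WD+alcohol 2, WD+alcohol 5, control 2 or control 4, 3 without WD+alcohol 1 or control 3, and 8 without WD+alcohol 4. Cd79a of B cells had 0 reads in all 9 libraries, while the antibody chain Igkc averaged 199 CPM in WD+alcohol and 211 CPM in control livers. Adipoq of adipocytes was at 0 in all but WD+alcohol 5, and Prss2 of pancreas in all but WD+alcohol 5 and control 3. Cd3e of T cells stood at 0.375 to 0.801 CPM in WD+alcohol livers and 0 to 0.379 CPM in controls, near or below the level that 3 reads give. Of the 8 tested T and NK cell genes, 5 had a positive and 3 a negative log2 fold change. Other genes of these lists were not silent. On the adipocyte list Cfd (58.4 ± 50.9 CPM in WD+alcohol livers against 1.45 ± 0.91 CPM in controls), Cidea (log2 fold change 3.37) and Fabp4 (24.1 ± 7.28 CPM in WD+alcohol livers against 10.7 ± 3.54 CPM in controls) rose and Pck1, also a hepatocyte gene, fell. The sum of that list was lower, at 1486 to 2175 CPM in WD+alcohol livers against 2571 to 3322 CPM in controls. Car3, also on it, averaged 736 ± 232 CPM in WD+alcohol livers and 1065 ± 349 CPM in controls. On the pancreas list Cela1, the only gene tested, fell (6.51 ± 0.94 CPM in WD+alcohol livers against 17.1 ± 6.37 CPM in controls), and on the stellate and fibroblast list Dcn and Lum rose by 0.79 and 1.36 on the log2 scale. Without control 1 the adipocyte count of 3 higher was 1, and without WD+alcohol 5, control 1 or control 3 the stellate count of 2 was 1. These genes were picked out after their values were seen.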

How the data were processed

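Liver RNA was made into Collibri 3′ mRNA libraries, per the labels' protocols. The tools named, without order or role, are STAR, HTSeq 0.11.0, edgeR 3.28.1, R 3.6.3, cutadapt 1.18 and Trim Galore 0.6.0, and the build is GRCm39 (mm39), per the submitters' processing notes. How strand and multiple matches were counted is not given there. The deposited values are a signal, CPM that the authors scaled by TMM. All positive values (100%, relative tolerance 1e-06) were whole multiples of the column's smallest, so whole reads were recovered. They gave depths and the runs of edgeR 4.0.16 and DESeq2 1.42.0, which called 315 and 545 genes.

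Titles gave the groups, and library names tied each column to a sample. That each library is 1 mouse is taken from the design's 5 and 4 mice. Values were tested as log2(CPM + 1), which understates changes of low genes, with limma-trend (limma 3.58.1, R 4.3.3) over the 14759 genes averaging 1 CPM or more, at an adjusted p under 0.05. Ratios and correlations used exact permutation tests (Python 3.11.15). Members and lists were chosen with earlier results of these data known. Named were all members and, of each list, up to 4 called genes by smallest p or else the most abundant, with markers of cell types. Igfbp1, Igfbp2, Igfbp3, Igfbp7, Ptpn6, Socs3 and Prlr were added after values were seen.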

Additional observations from a re-analysis of the deposited data

Results flagged for a closer look

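A sample far from the others of its group was looked for in 86 groups of values, and chance flags about 1 in 20 such groups. It was found in 6, or 6.98%. Igfals stood at 94.3 CPM in control 2, where the next control had 46.8 CPM. Foxa3 stood at 54.4 CPM in WD+alcohol 1, against 40.0 CPM in the next WD+alcohol library. Prlr stood at 67.4 CPM in WD+alcohol 3, the next being 39.8 CPM. Adipoq (0.400 CPM) and Prss2 (0.601 CPM) had reads in WD+alcohol 5 and in no other WD+alcohol library, and Prss2 (0.174 CPM) in control 3 and in no other control, all near or below the level that 3 reads give.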

How the results depend on the processing

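None of the 9 tested members was called in any of 22 alternatives, and 190 of 198 member values kept their sign. The 8 that turned were of Cish, Bcl6, Stat5a and Stat5b. Scaling on the hepatocyte list gave 0.025 for Cish and 0.015 for Bcl6, with 0.049 for Stat3 and 0.076 for Socs3 among other genes. Igfbp1 was -0.48 with edgeR and -0.48 with DESeq2. As single libraries were left out, log2 fold changes ran from -0.40 to 0.089 for Cish, -0.0045 to 0.12 for Stat5b, -0.11 to 0.17 for Stat5a, -0.45 to 0.93 for Igfbp1 and -0.18 to 0.016 for Socs3. The log2 ratio difference of Stat5b to Stat5a was 0.0044 with a pseudocount of 5 and ran from -0.17 to 0.20 without single libraries, and that of Igf1 to Socs2 from -0.10 to 0.16. Leaving out the 2 farthest libraries turned the r of Cish to 0.13 with Ghr, -0.22 with Igf1 and -0.58 with Igfals. The cause was not tested. Over all genes, calls numbered 533 (445 higher) with scaling on the hepatocyte list, 365 higher once every library was brought to one total, and 545 (370 higher, 175 lower) with DESeq2. Without single libraries the count was 201 to 387 (139 to 264 higher, 59 to 123 lower), lowest without WD+alcohol 5. Same-numbered mice share no stated source and their deviations did not correlate positively (-0.31 to -0.0075). With the replicate number as a block, which leaves WD+alcohol 5 without a partner and so without weight, 112 genes were called (76 higher, 36 lower), among them 9 male-biased genes lower but neither Sirpa nor Foxa3. At 1 read per 0.152 to 0.270 CPM, Cux2 alone among the members lay near the limit of detection. Counting error still adds to the spread of the less abundant members, such as Stat5a (58 to 136 reads) and Jak2 (109 to 210 reads).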
